A study of Arabidopsis thaliana with 60 samples.

Results

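In leaves of Arabidopsis thaliana (Col, wild type) that received high light and heat on the same leaf for 2 min, 40 of the 32833 genes counted had RNA lower by a set distance than in each other leaf group of the series. They were chosen from the leaf values themselves. A gene was taken when its mean over the 33 leaf libraries was at least 20 normalized counts (reads divided by a size factor per library), and when log2(group mean + 1) in the 2 min HL+HS leaves was at least 0.6 below that of each of the other 10 leaf groups. Both leaves of plants that received each stress on a different leaf also had to lie within 0.5 of the control at 2 min. Of all genes, 17175 passed the minimum mean, 8.95% of these had their lowest leaf mean under 2 min HL+HS whatever the distance, and 15390 of the 17175 lay within 0.5 of control in both of those leaves. Because the rule used all 11 leaf groups, the leaf values of the 40 genes are given as a description with no test, and the stem libraries, which the rule did not use, carry the tests.

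The plants were bolting wild-type plants grown at 23 °C in a 14 h day and 10 h night at 50 µmol m-2 s-1 of light. Treated leaves were exposed to high light (HL, 1700 µmol m-2 s-1 from a gooseneck lamp), to heat (HS, from a heat block 2 cm below the leaf), to both on 1 leaf (HL+HS), or to HL on one leaf and HS on another of that plant (HL&HS). Exposure lasted 2 or 8 min, and untreated control plants (CT) were taken at 0 min. The pair of stressed leaves of an HL&HS plant gave separate libraries, called here the HL partner leaf and the HS partner leaf. Stems, which were not treated themselves, were taken from plants of every treatment and from controls, which gave 11 leaf groups and 9 stem groups of 3 libraries each. No untreated plants at 2 or 8 min were among the groups, and the labels do not say whether the 3 libraries of a group came from separate plants, so p-values measure only the spread between these samples. The title and the treatment tag of the 8 min leaf groups under a single stress name different stresses, so these groups are called the leaves titled HL and titled HS.

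The 40 genes include 4 of immune receptor or resistance-protein type, 3 RING-type genes and single genes for a WRKY factor and a syntaxin, by a sorting made with the genes in view. Intracellular receptors of the TIR-NBS-LRR type recognise pathogen effectors, WRKY transcription factors bind a DNA element called the W box in promoters of defence genes, RING proteins attach ubiquitin to other proteins and so mark them for degradation, and syntaxins guide secretory vesicles to the plasma membrane. Genes of these kinds respond within minutes to wounding, touch, elicitors and reactive oxygen, and several encode short-lived transcripts.

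The sequences just upstream of 6 of the genes are shown because they hold the elements that the promoters of the 40 genes were searched for. They are the 250 bases before the annotated gene start in RefSeq's TAIR10.1 assembly, written 5′ to 3′ on the strand of the gene. AT3G61390, with the most W-box cores, is at chr3:22715988-22716237 (+ strand), SYP122 at chr3:19427231-19427480 (- strand), RDUF1 at chr3:17180560-17180809 (- strand), AT1G26380 at chr1:9128569-9128818 (- strand) and WRKY53 at chr4:12393983-12394232 (- strand). In these 5 the capitals mark the W-box core TTGAC or its reverse complement GTCAA. In HSP17.4, at chr3:16984868-16985117 (- strand), they mark the heat shock element GAANNTTC.
AT3G61390: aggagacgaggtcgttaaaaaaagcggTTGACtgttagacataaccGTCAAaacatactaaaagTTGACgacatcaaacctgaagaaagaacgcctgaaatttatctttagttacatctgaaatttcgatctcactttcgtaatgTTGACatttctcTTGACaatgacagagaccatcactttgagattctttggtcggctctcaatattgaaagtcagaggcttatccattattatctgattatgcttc
SYP122: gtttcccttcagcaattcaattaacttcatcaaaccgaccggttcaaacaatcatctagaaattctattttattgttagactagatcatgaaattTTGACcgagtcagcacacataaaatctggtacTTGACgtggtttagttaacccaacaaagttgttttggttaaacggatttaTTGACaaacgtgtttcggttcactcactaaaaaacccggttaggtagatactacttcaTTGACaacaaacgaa
RDUF1: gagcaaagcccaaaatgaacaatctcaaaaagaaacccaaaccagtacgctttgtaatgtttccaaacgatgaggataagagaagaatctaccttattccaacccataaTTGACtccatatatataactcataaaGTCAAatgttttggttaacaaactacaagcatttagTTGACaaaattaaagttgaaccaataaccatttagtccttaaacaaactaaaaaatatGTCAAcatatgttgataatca
AT1G26380: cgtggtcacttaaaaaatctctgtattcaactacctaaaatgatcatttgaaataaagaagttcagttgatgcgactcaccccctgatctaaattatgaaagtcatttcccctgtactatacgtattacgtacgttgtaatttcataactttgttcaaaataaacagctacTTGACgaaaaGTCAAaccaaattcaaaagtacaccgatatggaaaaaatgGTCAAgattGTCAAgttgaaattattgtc
WRKY53: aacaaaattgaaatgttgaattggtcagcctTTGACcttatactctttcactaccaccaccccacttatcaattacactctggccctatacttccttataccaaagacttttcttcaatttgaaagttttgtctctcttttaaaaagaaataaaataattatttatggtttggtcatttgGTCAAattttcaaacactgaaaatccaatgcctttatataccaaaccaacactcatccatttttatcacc
HSP17.4: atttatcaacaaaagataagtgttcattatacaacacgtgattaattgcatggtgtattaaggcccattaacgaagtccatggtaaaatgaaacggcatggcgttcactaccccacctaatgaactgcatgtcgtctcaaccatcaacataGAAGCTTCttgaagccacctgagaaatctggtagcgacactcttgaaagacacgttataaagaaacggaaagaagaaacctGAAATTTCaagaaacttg

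The W-box core TTGAC, counted on both strands, was present in the 250 upstream bases of 28 of the 40 genes (70%), against 44.5% of 17095 genes with a leaf mean of at least 20. It occurred at least 2 times in 14 of the 40 (35%), against 14.2% of those genes. AT3G61390 had 5 cores, SYP122, RDUF1 and AT1G26380 had 4 each, and BAP1, HSP17.4 and CNI1 had none in this window. The longer forms, which overlap the core, occurred as TTGACC in 32.5% of the 40 genes against 12% of the others searched, and as TTGACT in 35% against 18.6%. The heat shock element GAANNTTC was present in 8 of the 40 (20%, against 9.44%), the G-box CACGTG in 2 (5%, against 7.54%), the GCC-box GCCGCC in 2 (5%, against 2.01%) and the rapid stress response element CGCGTT in 3 (7.5%, against 2.83%). A match describes the letters of the window and is not a measured binding site.

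In the TAIR10.1 models 21 of the 40 genes (52.5%) had a single exon and the others had up to 12, against 13.8% of 17096 genes with a leaf mean of at least 20. Their transcripts were 367 to 4910 bases long, with a median of 1460 bases against 1780 bases. Their annotation named disease resistance in 3 of 40 (7.5%), against 0.696%, a word that was added to the search after the genes had been seen. It named a kinase in 0 of the 40, against 5.81%.

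At 2 min the libraries held 31725824 to 47559552 reads, whereas at 0 and 8 min they held 11071918 to 12998149. Comparisons of 2 min leaves or stems with control therefore also set deeper against shallower libraries, and treatment and depth cannot be told apart. The comparison with the other 2 min leaves does not, since the 3 HL+HS libraries held 38105305 to 42879629 reads and the other 2 min leaf libraries 31725824 to 47329912. Markers of leaf mesophyll, stem secondary wall, guard cells, phloem and epidermis were summed in each leaf library, and no list was at 0. Of the 9 wall markers, NST1 was at 0 in all 3 libraries of 2 min HL+HS leaves, of 2 min HL leaves and of control leaves. Summed wall markers were 691.5 to 857.8 normalized counts in 2 min HL+HS leaves, 518.8 to 824.3 in the other 2 min leaves and 580 to 652.1 in control leaves, against 66760 to 70390 in control stems. The myrosin cell markers TGG1 and TGG2, myrosinases of the glucosinolate defence, moved with the group: their sum was 43300 to 48510 in 2 min HL+HS leaves, 28900 to 34690 in the other 2 min leaves and 20840 to 22490 in control leaves. Their part in the results below was not tested. In bulk leaves, fewer cells of a type and less RNA per cell cannot be told apart.

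Relative to control leaves, the 40 genes in 2 min HL+HS leaves lay between -2.87 (CYP710A1) and -0.70 (AT1G25400) on the log2 scale, with a median of -1.36, and the control level was over 2 times that of 2 min HL+HS leaves in 32 of them. Against the mean of the 4 other 2 min leaf groups the differences ran from -2.51 (CYP710A1) to -0.74 (AT5G41740), with a median of -1.40. All 3 HL+HS libraries lay below all 30 other leaf libraries for 30 of the 40 genes, where 1.93% of the 17175 genes did so. They lay below all 12 other 2 min leaf libraries for 37 (4.22% of genes) and below the 3 control libraries for 37 (21.9% of genes). These counts follow from the rule and nothing is read from them. In limma's test, 11.7% of 18231 genes were lower and 9.02% higher in 2 min HL+HS leaves than in the other 2 min leaves.

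**Figure D1:**
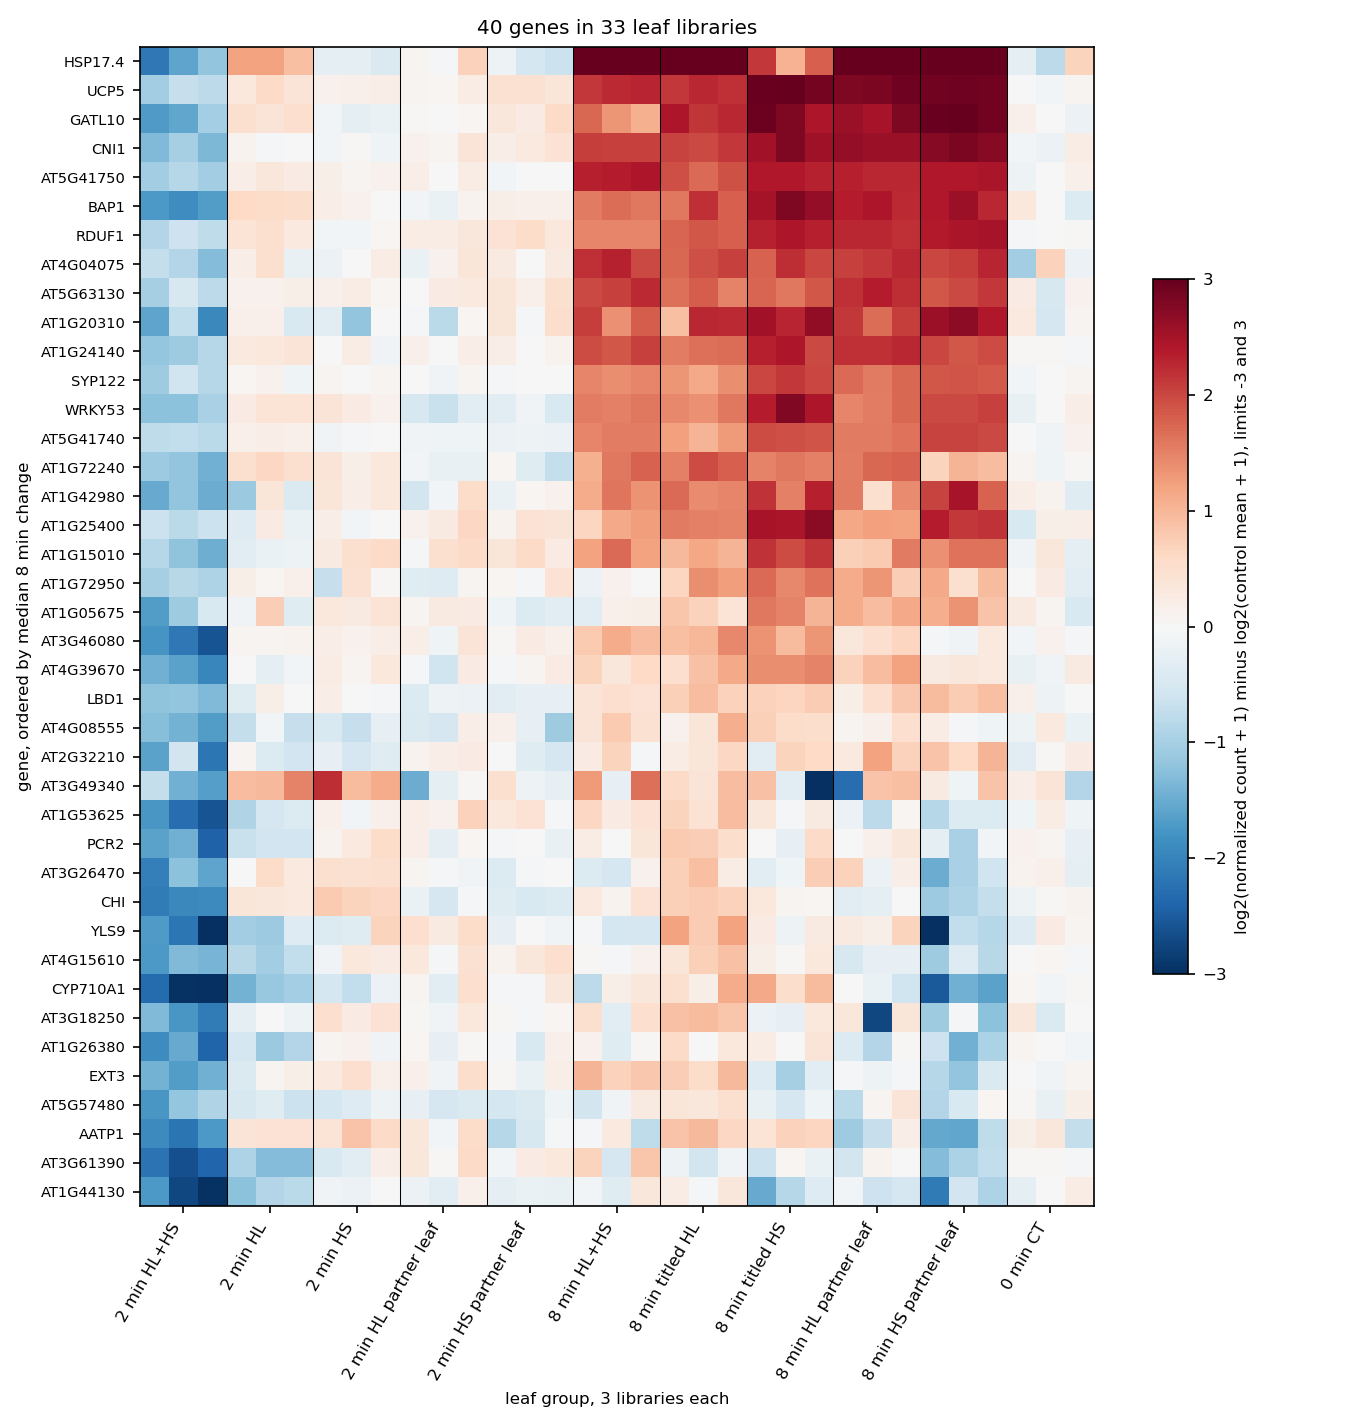
Difference of log2(normalized count + 1) from the control mean for each of the 40 genes (rows) in each of the 33 leaf libraries (columns, 3 a group), on a colour scale limited to -3 and 3. The 3 columns of 2 min HL+HS on the left are blue in every row, while at 8 min the upper rows are red in all 5 groups and 12 rows, among them CYP710A1 and YLS9, have means more than 0.5 below control in the HS partner leaf.

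The edge of the list was not sharp. AT1G25400 entered with a distance of 0.602 to the lowest other leaf group, and AT5G41740 and AT3G26470 with 0.611 each. Just outside were RLP20 (AT2G25440, 0.596), a receptor-like protein, LYK5 (AT2G33580, 0.587), a chitin receptor kinase, and AT2G28400 (0.578). LYK5 had a mean of 164.7 normalized counts in 2 min HL+HS leaves and 336.7 in control leaves. The widest distance was that of AT3G46080, at 2.13.

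AT3G46080 encodes a C2H2 zinc-finger protein. Its level was 33.6, 25.6 and 18.5 normalized counts in the 3 libraries of 2 min HL+HS leaves, 124, 123 and 125 in 2 min HL leaves, 134, 128 and 133 in 2 min HS leaves, and 110.2, 128 and 111 in control leaves. The HL+HS libraries were the lowest 3 of all 33, and no other 2 min group overlapped them. At 8 min the means of the 5 leaf groups were 121 to 273, so that AT3G46080 was 2-fold above control in 2 of the 5.

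WRKY53 (AT4G23810), a WRKY factor known from leaf senescence and basal defence, had 75.1, 74.5 and 89.8 normalized counts in 2 min HL+HS leaves, 125, 109.9 and 139.5 in the 2 min HL partner leaf and 151, 175 and 203 in control leaves. HL leaves (226 ± 13.7, SD, n = 3) and HS leaves (210.1 ± 17.9) at 2 min were both above the control mean, and the HL partner leaf was the lowest other group. At 8 min WRKY53 reached means of 491 to 1027. LBD1 (AT1G07900), of the LOB-domain family of transcription factors, had 65.5, 66.7 and 60.9 in 2 min HL+HS leaves against 171, 138 and 152 in control leaves, and stayed below 2-fold above control in all 5 groups at 8 min.

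Among the RING-type genes, CNI1 (AT5G27420, also called ATL31), a ubiquitin ligase of carbon and nitrogen response and of immunity, had 55.9, 71.2 and 55.3 normalized counts in 2 min HL+HS leaves, 133, 146 and 129.6 in 2 min HS leaves and 135, 125 and 166 in control leaves. RDUF1 (AT3G46620), a RING ubiquitin ligase known from drought response, had 183, 220.1 and 199 in 2 min HL+HS leaves, 319, 321 and 351 in 2 min HS leaves and 331, 337 and 346 in control leaves. In both genes the HL+HS libraries were separate from all others, and the HS leaves were the nearest. At 8 min in HL+HS leaves, CNI1 reached 595 ± 8.40 and RDUF1 937 ± 3.55. The third, AT3G61390, had 6.39, 4.45 and 5.53 in 2 min HL+HS leaves, 16.9, 12.8 and 12.8 in 2 min HL leaves and 33.8, 33.7 and 31.7 in control leaves, so it was low under HL alone too.

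The list held 4 genes of receptor or resistance-protein type. The TIR-NBS-LRR gene AT5G41740 had the highest counts of the 40 genes, not scaled to length, with 1016, 1029 and 979 normalized counts in 2 min HL+HS leaves, 1538, 1545 and 1535 in the 2 min HS partner leaf and 1700, 1602 and 1877 in control leaves. Its neighbour AT5G41750 had 387, 438 and 386 in 2 min HL+HS leaves and 719.6, 788 and 876 in control leaves. The libraries of each group lay close together in both genes, and the 2 min HL+HS libraries did not overlap any other group. The 2 genes share sequence: 11.4% of the 50-base windows of AT5G41740 and 8.58% of those of AT5G41750 are found in the other, so reads could be split between them. AT1G72950, of the TIR-NBS type, had 13.6 ± 0.838 in 2 min HL+HS leaves and 26.6 ± 5.41 in control leaves (SD, n = 3 each), and AT3G26470, with an RPW8 domain found in powdery mildew resistance proteins, had 15.9 ± 4.69 and 49.8 ± 8.09 in the same groups.

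BAP1 (AT3G61190), a C2-domain membrane protein that restrains cell death in defence, had 25.6, 23.4 and 26.4 normalized counts in 2 min HL+HS leaves, 133, 129 and 126 in 2 min HL leaves and 108, 87.5 and 65.2 in control leaves. The 3 HL+HS libraries were within 4 counts of each other and the lowest other leaf library was at 65.2. SYP122 (AT3G52400), a plasma membrane syntaxin of defence secretion, had 249, 345 and 288 in 2 min HL+HS leaves and 496, 522 and 554 in control leaves, with the other 2 min means at 516 to 546. CHI (AT2G43570), annotated as a chitinase, had 197, 221 and 226 in 2 min HL+HS leaves, 1460, 1338 and 1312 in 2 min HS leaves and 761, 870.1 and 913 in control leaves. CHI was therefore above control under HS alone and under HL alone (1064 ± 28.2) while it was lowest under both on 1 leaf. YLS9 (AT2G35980, also called NHL10), a marker of senescence and of the response to bacterial flagellin, had 7.99, 5.56 and 1.23 in 2 min HL+HS leaves and 21.3, 33.7 and 29.97 in control leaves, and its lowest HL+HS library held 2 reads. AT1G26380, of the FAD-linked oxidase family with the berberine bridge enzyme, had 7.46 ± 2.54 in 2 min HL+HS leaves and 30.2 ± 1.89 in control leaves, and AT1G20310, annotated as syringolide-induced, 3.36 ± 1.95 and 9.92 ± 2.91.

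**Figure D2:**
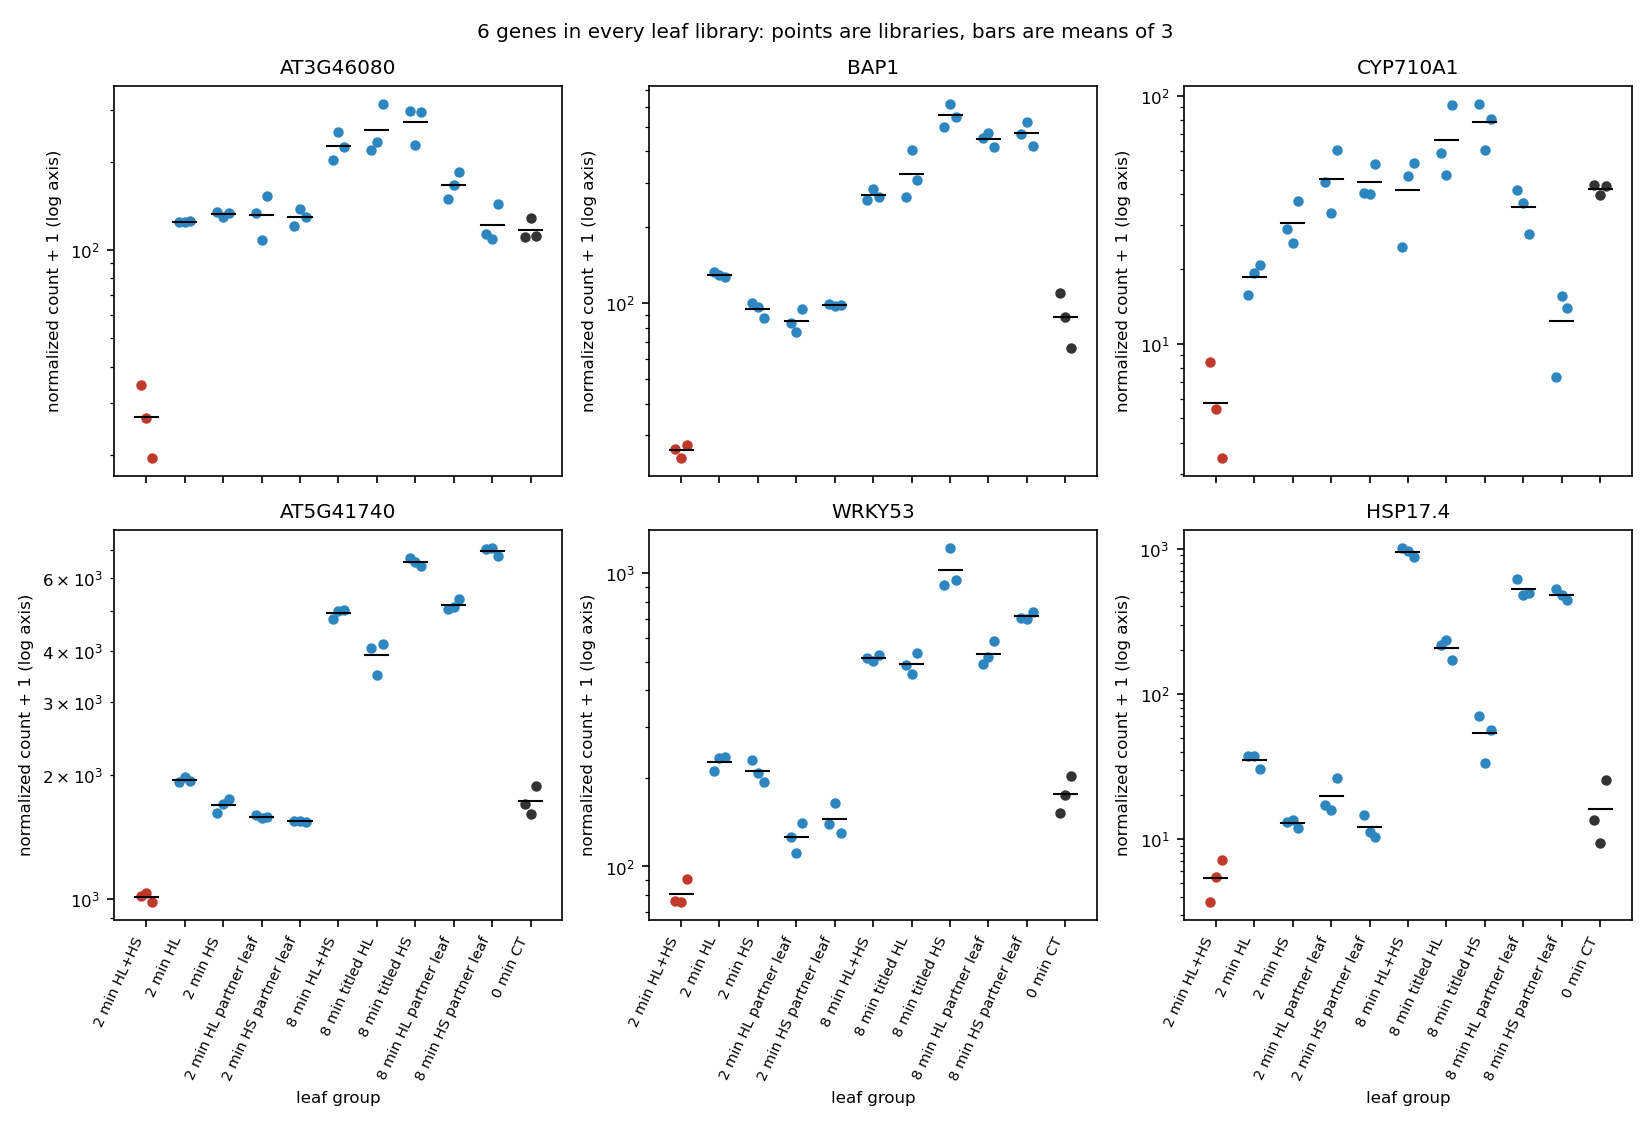
Normalized count + 1 (log axis) of 6 of the genes in every leaf library, with points for libraries and bars for the means of 3. The 2 min HL+HS libraries (red) lie below the control (black) and below the other 2 min libraries in each panel. CYP710A1 alone among the 6 has other groups more than 0.5 below control (log2), the 2 min HL leaves and the 8 min HS partner leaf.

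Of the wall genes and proteases, EXT3 (AT1G21310), an extensin that builds the wall glycoprotein scaffold, had 74.02, 62.3 and 72.6 normalized counts in 2 min HL+HS leaves and 201, 187 and 212 in control leaves. GATL10 (AT3G28340), a galacturonosyltransferase-like protein, had 11.2, 12.2 and 18.5 in 2 min HL+HS leaves and 42.6, 38.7 and 33.5 in control leaves, and at 8 min means of 102 to 308. AT1G24140, a matrixin-type metalloproteinase, had 71.4, 76.2 and 87.3 in 2 min HL+HS leaves and 164, 163 and 153 in control leaves. In these 3 the HL+HS libraries lay below all others. The aspartyl protease AT1G44130 had 14.4, 6.67 and 5.53 in 2 min HL+HS leaves against 40.9, 50.5 and 58.2 in control leaves. The cysteine proteinase AT3G49340 had the lowest mean count of the 40, not scaled to length, with 7.99, 4.45 and 3.69 in 2 min HL+HS leaves and 15.99, 18.5 and 7.05 in control leaves, and its libraries were scattered in several groups.

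Among genes of metabolism and transport, CYP710A1 (AT2G34500), the C22-sterol desaturase that makes stigmasterol, showed the largest difference from control. It had 7.46, 4.45 and 2.46 normalized counts in 2 min HL+HS leaves, 14.7, 18.3 and 19.7 in 2 min HL leaves, 28.1, 24.4 and 36.5 in 2 min HS leaves and 42.6, 38.7 and 42.3 in control leaves. HL alone thus stood between the combination and the control, and its lowest HL+HS library held 4 reads. UCP5 (AT2G22500, also called DIC1), a mitochondrial dicarboxylate carrier, had 125, 161 and 151 in 2 min HL+HS leaves and 259, 247 and 275 in control leaves, and 1129, 1228 and 1271 in 8 min HL+HS leaves. PCR2 (AT1G14870), a zinc exporter of the plant cadmium resistance family, had 18.96 ± 6.44 in 2 min HL+HS leaves, 43.3 ± 1.77 in 2 min HL leaves and 66.7 ± 8.93 in control leaves (SD, n = 3 each). The glycolipid transfer protein gene AT4G39670 stood at 21.5 ± 3.96 in 2 min HL+HS leaves and 70.2 ± 12.7 in control leaves, and the AAA-type ATPase AATP1 (AT5G40010) at 6.26 ± 1.19 and 26.6 ± 9.44. Differences from control were -0.99 for the UDP-glycosyltransferase AT1G05675 and -1.23 for the P-loop ATPase AT5G57480 (log2).

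HSP17.4 (AT3G46230), a cytosolic class I small heat shock protein that holds unfolding proteins in solution, was the only chaperone among the 40. It had 2.66, 4.45 and 6.15 normalized counts in 2 min HL+HS leaves, 36.1, 36.1 and 29.3 in 2 min HL leaves, 12.1, 12.5 and 10.9 in 2 min HS leaves and 12.4, 8.42 and 24.7 in control leaves. Under HL alone the level was thus above control, while under both stresses on 1 leaf it was the lowest. By 8 min HSP17.4 stood at 1012, 956 and 872 in HL+HS leaves, the highest group, and at 69.3, 32.5 and 55.2 in leaves titled HS. Annotated antisense genes cover 70.9% of its exonic bases, and since the counting's use of strand is not given in the sources used here, reads of HSP17.4 and of those genes may not be separated. The same holds for AT3G26470 (37.5%), EXT3 (29.2%), AT4G04075 (23.5%) and WRKY53 (20.5%).

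The other 11 genes are mostly small or uncharacterized proteins, with log2 differences from control between -2.16 (AT1G53625, uncharacterized) and -0.70 (AT1G25400, uncharacterized). Of these, AT1G53625 had 29.3, 20.01 and 15.99 normalized counts in 2 min HL+HS leaves and 92.4, 118 and 91.7 in control leaves. Between them lay AT3G18250 (-1.68), a putative membrane lipoprotein, AT4G15610 (-1.48), of the Casparian strip membrane protein-like family, AT1G42980 (-1.39), formin-like, AT2G32210 (-1.28), a cysteine-rich transmembrane protein, AT5G63130 (-0.74), with a PB1 domain, and the long non-coding RNA AT4G04075 (-0.94). AT4G08555, AT1G72240 and AT1G15010 were at -1.44, -1.23 and -1.15.

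The 40 genes differed among themselves in the level of the 2 min HL leaves. The rule used these leaves, the HS leaves and the control, so the counts below depend on it and nothing is read from them. The 2 min libraries were also deeper than those of the control. In 8 of them the 2 min HL leaves were more than 0.5 below control on the log2 scale (2.52% of the 17175 genes were): CYP710A1 (-1.18), AT3G61390 (-1.17), AT1G44130, AT4G15610, AT1G26380, YLS9, PCR2 and AT1G53625 (-0.59). In 4 they were more than 0.5 above control (2.92% of genes), among them AT3G49340 (1.16) and HSP17.4 (1.11). HS leaves at 2 min were more than 0.5 below control in 0 of the 40 (1.58% of genes) and above it in 3 (3.9% of genes). The lowest leaf group other than 2 min HL+HS was 2 min HL in 10 genes, the 8 min HS partner leaf in 9, the same leaf at 2 min in 7, the control in 5, 2 min HS in 5 and the 2 min HL partner leaf in 4.

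At 8 min the genes ranged from far above control to below it. Of the 40, 17 were at least 2-fold above control in all 5 leaf groups, where 1.41% of the 17175 genes were, 7 in 1 to 4 groups and 16 in none. The rule required each 8 min group to lie at least 0.6 above 2 min HL+HS. These counts and the ratios below depend on it, and nothing is read from them. The 17 included BAP1, CNI1, RDUF1, SYP122, UCP5, WRKY53, GATL10, HSP17.4, AT5G41740 and AT5G41750. The 16 included CYP710A1, CHI, EXT3, PCR2, LBD1, AATP1, AT1G44130, AT3G61390 and AT1G26380. From 2 to 8 min of HL+HS the ratio of group means was between 1.93 (AT1G72950) and 214 (HSP17.4), with a median of 5.38. The 8 min libraries are of the same depth class as the controls, and the 2 min libraries are not.

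In 12 of the genes there was a second low in the 8 min HS partner leaf, more than 0.5 below control on the log2 scale (6.45% of genes were). The rule used this group too, so the count depends on it and nothing is read from it. CYP710A1 had 6.37, 14.6 and 12.98 normalized counts there, against 42.6, 38.7 and 42.3 in control leaves. CHI had 399, 445 and 515 there and 761, 870.1 and 913 in control leaves, and EXT3 110.3, 87.6 and 147 and 201, 187 and 212. In that leaf the summed myrosin cell markers were 43570 to 49100 normalized counts, against 20840 to 22490 in control leaves, and the 5 summed leaf mesophyll markers 1311000 to 1417000, against 969000 to 996500. Their part in the second low was not tested. The W-box core was present upstream of 15 of the 16 genes that were 2-fold above control in no 8 min group and of 9 of the 17 that were in all 5, a split made after the values were seen and given with no test.

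**Figure D3:**
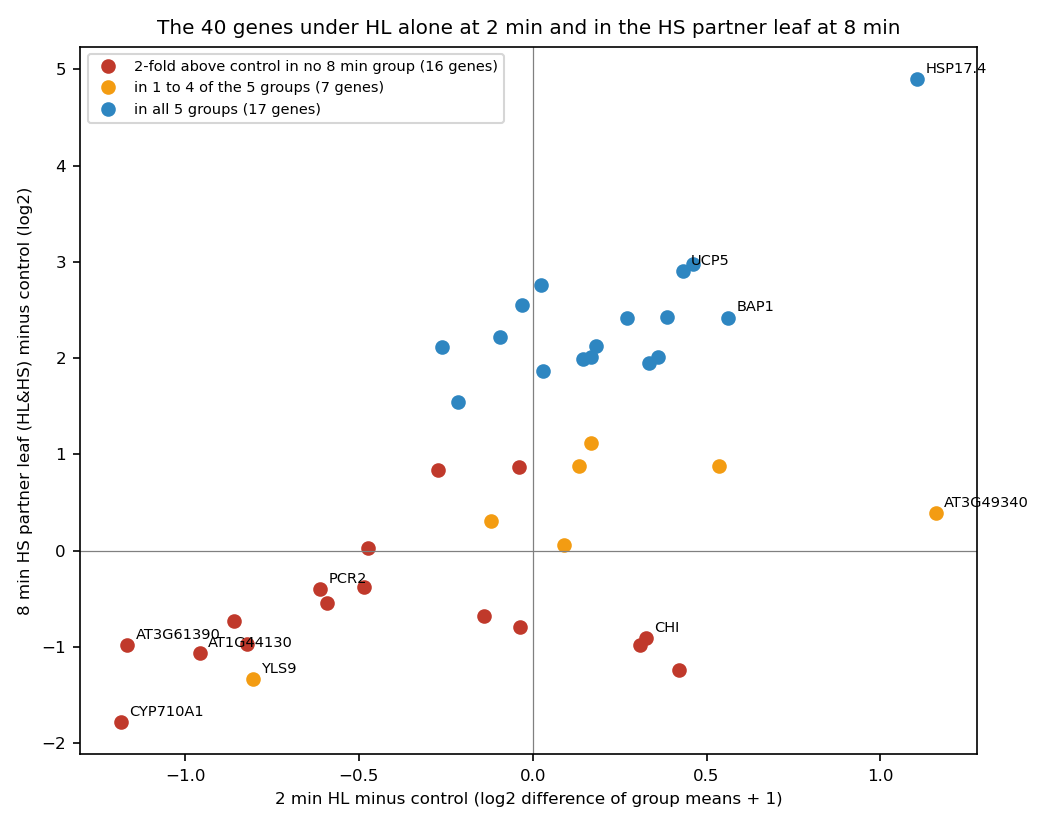
Log2 difference from control of the 2 min HL leaves (x) and of the 8 min HS partner leaf (y) for the 40 genes, coloured by the number of 8 min leaf groups at least 2-fold above control. Both axes share the control libraries, so the position along the diagonal is a description only. CYP710A1 lies at the lower left and HSP17.4 at the upper right, and the 17 blue genes all lie above 1.5 on the y axis.

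The stems gave a measurement that the choice of genes did not use. At a stem mean of at least 10 normalized counts, 17 of the 40 genes could be tested, and the other 23 were below that. That mean was taken over all 27 stem libraries, the 8 min stems included. A gene could thus pass through the groups in which it was high, and its calls there depend partly on this limit. BAP1, for one, had a mean of 16.06 over all stems and 3.77 in control stems. In control stems 5 of the 40 genes had a higher mean than in control leaves, as 46.2% of the 17175 genes did, among them UCP5 (474 in stems and 261 in leaves) and AT4G08555 (151 and 78.6). The comparison closest to the leaf pattern set stems of plants under 2 min HL+HS against stems of the 3 other 2 min groups. In it, limma called 3 of the 17 genes lower and 1 higher, where 6.27% of 18428 genes were called, 3.31% lower and 2.96% higher.

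CHI was lower in that comparison by a log2 change of -1.02 ± 0.27 (SE, adjusted p = 0.0129). Its stems held 12.1, 14.02 and 8.14 normalized counts under HL+HS, 23.6, 19.8 and 16.96 under HL, 19.9, 14.3 and 19.5 under HS and 35.6, 42.7 and 34.01 under HL&HS. The HL+HS stems were the lowest 3 of these 12 libraries. AT5G41740 was lower by -0.51 ± 0.14 (adjusted p = 0.0148), with 39.6, 29.2 and 26.04 under HL+HS, 44.3, 44.4 and 43.6 under HS and 39.3, 34.6 and 37.02 under HL&HS, where the first HL+HS library lay above all 3 of HL&HS. AT1G72240 was lower by -0.38 ± 0.12 (adjusted p = 0.0442). UCP5 was higher, by 0.14 ± 0.04 (adjusted p = 0.0414), with 676, 666 and 695 under HL+HS and 658, 665 and 714 under HL&HS, which overlapped. BAP1 had a change of -0.76 ± 0.30 that did not pass (adjusted p = 0.136). The median change of the 17 genes was -0.09, against 0.00 over all genes tested.

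These stem calls rested on few libraries. Without replicate 1 of the HL+HS stems, or without replicate 3, 1 gene was called lower instead of 3. CHI was lost without replicate 1 or 3 of the HL+HS stems (adjusted p of 5.32e-05 to 0.191 over its alternatives) and AT5G41740 without replicate 2 or 3 (0.00177 to 0.24). AT1G72240 was lost without any 1 of 10 of the 12 libraries compared (0.00611 to 0.545) and UCP5 without any 1 of 9 (0.00407 to 0.265).

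Against control stems, whose 3 libraries serve every comparison, the counts at 2 min under HL+HS were 6 genes lower and 1 higher of 17, where 36.2% of genes were called, 18.5% lower and 17.8% higher. At 2 min these stem comparisons also set deeper libraries against shallower controls. CHI (-1.69 ± 0.33, adjusted p = 6.37e-05), AT4G08555 (-1.30 ± 0.25, adjusted p = 7.06e-05), AT5G41740, AT5G41750, AT1G72240 and AT5G57480 were lower and UCP5 was higher. The call of AT1G72240 was lost without replicate 1 of the control or of the HL+HS stems (adjusted p of 0.00261 to 0.129 over its alternatives), and that of AT5G57480 also without replicate 2 of the control stems (0.000808 to 0.0877). HL stems at 2 min had 3 lower and 3 higher, where 42.8% of genes were called, 21.9% lower and 21% higher. HS stems had 4 lower and 1 higher (30.8% of genes called, 15% lower and 15.7% higher). HL&HS stems had 4 lower and 3 higher (41% of genes called, 21.1% lower and 19.9% higher). BAP1 rose in 2 min HL stems, with 7.71, 10.7 and 12.9 normalized counts against 2.93, 3.31 and 5.07 in control stems (1.26 ± 0.37, adjusted p = 0.00468), and it was 4.30, 1.56 and 6.10 in HL+HS stems. In the 3 control stem libraries 1 read was worth 1.47, 1.65 and 1.69 normalized counts. The control level of BAP1 was thus only a few reads.

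At 8 min most of the genes testable in stem rose in HL&HS plants. In HL&HS stems 11 of 17 were higher and 3 lower than in control stems, where 42.9% of genes were called, 20.6% higher and 22.3% lower, and the median change of the 17 was 1.12 on the log2 scale, against -0.01 over all genes. BAP1 had 34.1, 55.5 and 44.5 normalized counts in 8 min HL&HS stems, 47.1, 37.4 and 40.2 in HL+HS stems, 18.3, 20.9 and 20.9 in HS stems, 9.99, 7.61 and 7.36 in HL stems and 2.93, 3.31 and 5.07 in control stems. Each of these groups lay above the control (3.26 ± 0.37, adjusted p = 1.31e-09 in HL&HS stems). That control level of BAP1 was only a few reads, so the size of its changes is uncertain. BAP1 also passed the limit on the stem mean with these 8 min stems counted in it, so its calls here depend partly on that limit. The call in HL stems (0.98 ± 0.37, adjusted p = 0.0272) was lost without replicate 1 or 2 of the control stems, without replicate 1 of the HL stems, and with edgeR and DESeq2, with an adjusted p of 0.0189 to 0.182 over its alternatives. SYP122, RDUF1, GATL10, WRKY53 and UCP5 also rose in HL&HS stems, RDUF1 by 1.33 ± 0.08 (adjusted p = 5.85e-18) and WRKY53 by 1.24 ± 0.20 (adjusted p = 2.21e-06). In HL+HS stems 7 were higher and 3 lower, where 33.6% of genes were called, 18.1% higher and 15.4% lower. HL stems had the same numbers (43.7% of genes called, 22% higher and 21.7% lower), and HS stems had 7 higher and 2 lower (34.4% called, 17.9% higher and 16.5% lower).

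The genes differed among themselves in stem. UCP5 was higher than control in all 8 stem groups and AT4G08555 lower in all 8. AT4G08555 had 9.30, 29.99 and 30.2 normalized counts in 8 min HL&HS stems against 191, 136 and 127 in control stems (-2.80 ± 0.25, adjusted p = 6.14e-12). CHI fell in 8 min HL+HS stems to 4.87, 5.98 and 5.03, against 74.8, 36.4 and 20.3 in control stems (-2.64 ± 0.33, adjusted p = 2.11e-08). EXT3 was 11.4, 5.98 and 3.35 in 8 min HL+HS stems and 29.5, 47.98 and 35 in 8 min HL&HS stems, against 24.9, 9.93 and 21.96 in control stems, lower with both stresses on 1 leaf (-1.37 ± 0.34, adjusted p = 0.00168) and higher with the stresses on 2 leaves (1.02 ± 0.34, adjusted p = 0.0155). The second call was lost without replicate 2 of the control stems or replicate 2 of the HL&HS stems, and its adjusted p was 0.00802 to 0.17 over its alternatives. PCR2 and AT5G63130 passed in none of the 9 stem comparisons.

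**Figure D4:**
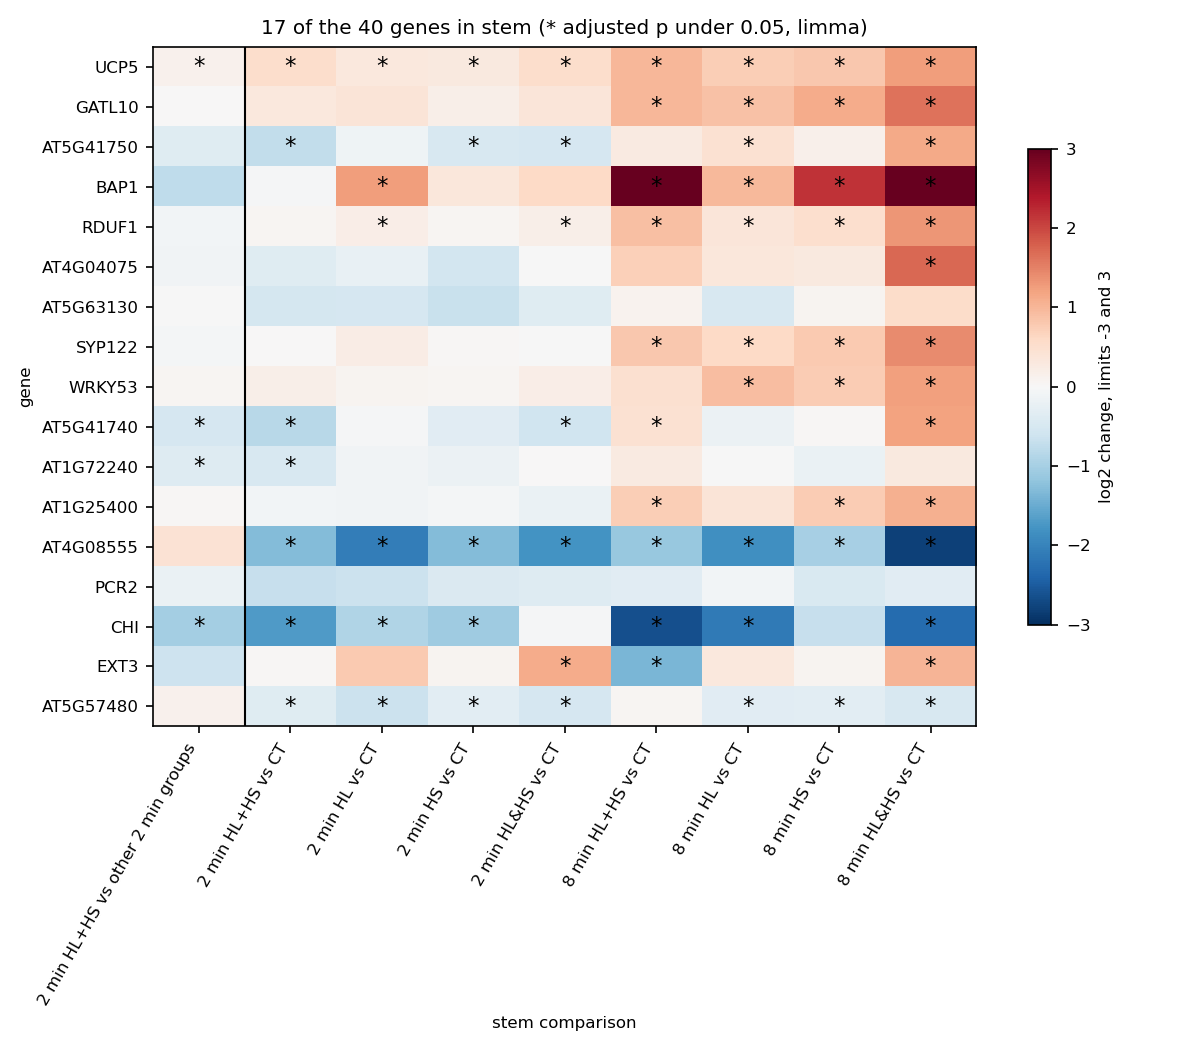
Log2 change of the 17 genes testable in stem, for 2 min HL+HS against the other 2 min stems (first column) and for each of the 8 stressed stem groups against control stems. A star marks an adjusted p under 0.05 in limma, and the colour scale is limited to -3 and 3. Stars in the first column fall on CHI, AT5G41740, AT1G72240 and UCP5, and the last column, 8 min HL&HS, holds 14 stars.

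Other genes of the same pathways were taken from lists of known stress genes and set beside the 40, of which 5 stand on such a list. Against the other 2 min leaves, the lists of rapid signalling genes were mostly lower in 2 min HL+HS leaves: 11 of 11 AP2/ERF regulators (median log2 change -1.79), 10 of 11 touch and calmodulin-like genes (-1.12), 6 of 8 ZAT and AZF zinc-finger genes (-1.35), 3 of 4 CBF and DDF regulators (-1.40), 16 of 19 rapid wound and elicitor genes (-0.81), 15 of 18 stress WRKY factors (-0.61) and 14 of 20 heat response genes (-0.63), with 0 higher in each. Over all genes 11.7% were lower and 9.02% higher, and the median was 0.00. Against control leaves, where 15.5% of genes were lower and 18.2% higher, the counts were smaller in some lists: 9 of 11 touch genes (median -0.93), 7 of 8 ZAT and AZF genes (-0.71), 12 of 18 WRKY factors (-0.72, with 1 higher) and 13 of 19 wound and elicitor genes (-0.40) were lower. So were 5 of 11 AP2/ERF regulators (-0.34), while heat genes were 8 lower and 4 higher of 20 (-0.04), and of the CBF and DDF regulators 0 were lower and 1 of 4 higher (0.26). For the CBF and DDF list the median thus had opposite signs in the comparisons with the other 2 min leaves and with control. In stems of 2 min HL+HS plants against the other 2 min stems, where 3.31% of genes were lower, the counts were 1 of 9 touch genes, 1 of 10 AP2/ERF regulators, 0 of 1 CBF and DDF regulator, 1 of 7 ZAT and AZF genes, 3 of 14 WRKY factors, 3 of 14 wound and elicitor genes and 1 of 14 heat genes lower, with 0 higher. Without the genes that are among the 40, and against the other 2 min leaves, 14 of 17 WRKY factors, 13 of 16 wound and elicitor genes and 13 of 19 heat genes were lower. The lists were chosen with results of these libraries known, so their direction is no independent evidence.

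Some of these relatives had changes of the size seen among the 40 genes. The genes named were picked from their lists for a small p against control in the same 2 min HL+HS leaves. Their values are therefore a description and no independent evidence. WRKY40, a pathogen-induced repressor, had 41.3 ± 4.52 normalized counts in 2 min HL+HS leaves and 97.5 ± 17.3 in control leaves (SD, n = 3 each). Its change against the other 2 min leaves was -2.41 ± 0.07 (SE). WRKY46 had 272 ± 12.9 in 2 min HL+HS leaves and 775 ± 37.2 in control leaves (-1.19 ± 0.05 against the other 2 min leaves). The calmodulin-like gene CML37 had 23.1 ± 3.10 in 2 min HL+HS leaves and 118 ± 12.7 in control leaves, and ZAT10, a zinc-finger repressor of abiotic stress, 105 ± 7.35 and 189 ± 15.2. The small heat shock gene HSP17.6C had 1.68 ± 0.503 in 2 min HL+HS leaves and 14.5 ± 1.23 in control leaves. Its change against the other 2 min leaves was -3.84 ± 0.12 (SE).

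The remaining lists differed in direction. Against the other 2 min leaves, 13 of 15 light-harvesting and photosystem genes were higher and 0 lower (median 0.14), 7 of 9 low-sugar genes higher and 0 lower (0.27), and 8 of 17 xyloglucan and expansin wall genes higher and 1 lower (0.19). Jasmonate synthesis and JAZ genes were split, 4 lower and 5 higher of 23 (-0.05), as were clock genes (3 and 2 of 18), auxin response genes (2 and 4 of 13) and abscisic acid and cold effectors (5 and 3 of 15). Of the nitrate response genes, 5 of 13 were lower and 0 higher (-0.12). Against control leaves 15 of 23 jasmonate genes were higher and 0 lower. HSFA2, a heat shock factor that amplifies the heat response, had 425 ± 25.5 in 2 min HL+HS leaves and 244 ± 6.82 in control leaves (SD). It was higher than control (0.80 ± 0.04, SE) and lower than in the other 2 min leaves (-0.78 ± 0.03). HSFA2 too was picked for a small p against control, so this is a description.

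**Figure D5:**
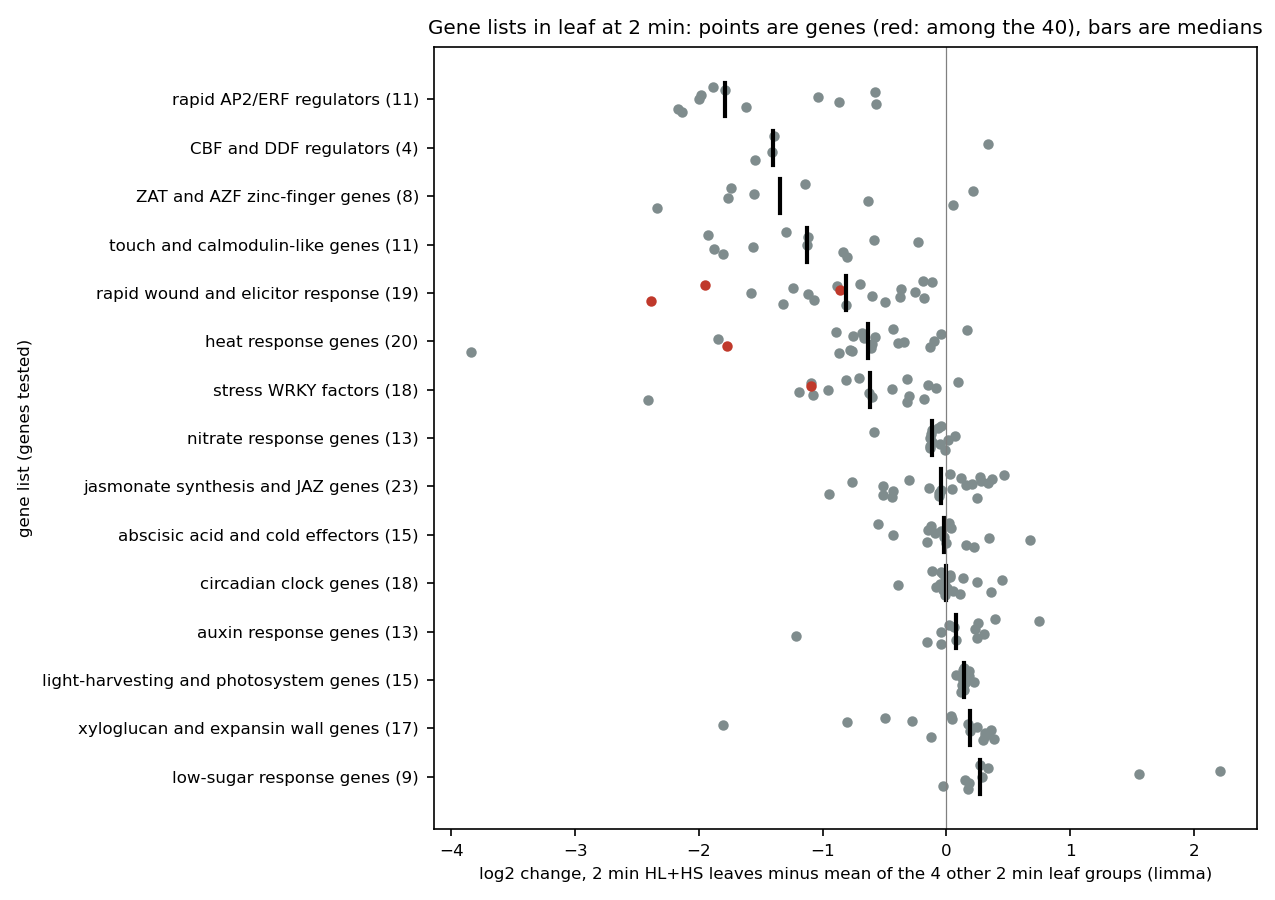
Log2 change of each tested list gene in 2 min HL+HS leaves against the mean of the 4 other 2 min leaf groups, by list, with bars for the medians and red points for genes among the 40. Lists of AP2/ERF, CBF and DDF, ZAT and AZF and touch genes lie farthest to the left, and the low-sugar, wall and photosystem lists lie to the right of 0.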

How the data were processed

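RNA was sequenced from 33 leaf and 27 stem libraries in 20 groups of 3. The deposited signal is normalized counts: within each library, every gene's reads over the same size factor. Per the submitters' processing notes, FastQC 0.11.7, STAR 2.4.0.1, DESeq2 1.20.0 and the TAIR10 genome were used. The counting tool, its use of strand and the annotation are not given in the sources used here. In the deposited signal, 100% of values were whole reads within 0.001 reads once divided by the value of 1 read, so whole reads were recovered. All columns matched a sample title.

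Log2(normalized count + 1) was tested with limma 3.58.1 in R 4.3.3 (eBayes with a mean-variance trend, two-sided), with all libraries of a tissue in 1 fit. Genes with a mean of at least 10 entered, and a gene was called at a Benjamini-Hochberg adjusted p under 0.05 over all genes tested. Adding 1 makes the changes of weakly expressed genes too small. The 40 genes and the gene lists were chosen with earlier results of these data known. All 40 may be named, and list genes named are among the 4 of their list with the smallest p against control in 2 min HL+HS leaves. Single exons, lengths and upstream bases come from RefSeq TAIR10.1, which matched all 40 genes.

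Alternatives were other limits of the rule, a pseudocount of 0.1, no filter, rescaling within the tissue (TMM), a replicate block, fits of the compared groups alone, edgeR 4.0.16 and DESeq2 1.42.0 on the recovered reads, and leaving out each library. Fits were tested on simulated data. All 60 pairs of replicates differed by more than sampling noise, with a chi-square per gene of 1.34 to 6.60.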

Additional observations from a re-analysis of the deposited data

Results flagged for a closer look

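In stems, 3 of the 40 genes stood on opposite sides of the control at 2 and 8 min of the same treatment. Their 2 min libraries all lay above, or all below, every control stem library. Their 8 min libraries all lay beyond every control stem library on the opposite side. These differences between times were not tested, and both times share the control libraries. The share of all genes with such a pattern was not counted, so nothing is read from the number of genes. For AT5G41740 the 8 min change minus the 2 min change was 1.82 on the log2 scale under HL&HS and 1.30 under HL+HS. For AT5G41750 it was 1.61 under HL&HS. For CNI1, whose stem mean was under 10 normalized counts, it was 1.38 under HL.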

How the results depend on the processing

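The rule gave 61 genes with a distance of 0.5, all 40 among them, and 25 with a mean of at least 50. It gave 27 with a distance of 0.8, 46 with a mean of at least 10, 42 with a pseudocount of 0.1 (each time the 40, or a part of them, with any others added), 41 with group medians (33 shared), 39 after TMM rescaling (37 shared) and 40 after thinning to the smallest leaf library (30 shared). The thinning was 1 random draw and was rescaled by total reads. Depth, scaling and the draw cannot be told apart in it. Added after the data were seen, the rule gave 40 without the 8 min groups titled HL and HS and 54 over 0 and 2 min alone. Leaving out 1 leaf library gave 35 to 48 genes.

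In stem, 2 min HL+HS against the other 2 min groups had 6 of the genes lower with only the compared groups, 5 with edgeR and 5 with DESeq2, and 2 higher in each of the 3. Leaving out 1 library gave 1 to 3 lower and 0 to 1 higher. With no filter, more genes were tested, and those higher than control at 2 min were 2 in HL+HS stems, 5 each in HL and HL&HS stems and 4 in HS stems, and 4 were lower in 8 min HS stems. With only the compared groups, 2 were higher in 2 min HS stems and 1 lower in 8 min HS stems. Leaving out 1 library against control gave 2 to 4 lower in 2 min HS stems, 1 to 3 higher in 2 min HL&HS stems and 1 to 3 lower in 8 min HS stems. The cause was not tested. Of 958 alternatives of 72 called results of single genes in stem, 876 kept the call, 82 lost it and 0 reversed.

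The replicate numbers are not stated to pair samples. Deviations of same-numbered libraries correlated at -0.11 to 0.13 over 48 pairs of libraries, with 2 over 0.1. With the replicate block, 3 genes were lower and 1 higher in 2 min HL+HS stems against the other 2 min stems. RDUF1 in 2 min HL&HS stems lost its call.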
